A study of Mus musculus with 12 samples.

Results

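The genes described are Igf1, which encodes insulin-like growth factor 1 (IGF1), and 7 genes whose products carry it in blood, bind it or receive its signal: Igfals, Igf1r, Igfbp1, Igfbp2, Igfbp3, Igfbp4 and Igfbp7. They were chosen by gene symbol, and are 8 of the 57180 genes in the expression table. Each symbol matched 1 row, and all 8 were among the 19350 genes with enough reads to be tested. Liver RNA was sequenced from 12 mice, from 3 mice of each sex in each of 2 genotype groups, KO and Het, with ribosomal RNA removed. The comparison of KO with Het livers was part of a study of AAV9-CSA, a viral vector for gene therapy of Cockayne syndrome, and addresses whether the liver is affected in treated mice at the end of their life.

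All 12 mice lacked Csa (annotated in mouse as Ercc8) and all had received AAV9-CSA as newborns into the ventricles of the brain. The vector carries the human CSA cDNA under the chicken beta-actin promoter, which is active in most tissues. KO livers came from CX mice at the humane endpoint, which was defined by posture and tremor, and Het livers came from treated littermates of matched age. The age of each mouse in days is not given in the sources used here. In the labels KO stands for Csa-/-;Xpa+/+ and Het for Csa-/-;Xpa+/-, whereas CX mice are described elsewhere in the study as lacking Xpa as well, so the livers are grouped here by the names KO and Het. Untreated mice were not analysed here, and effects of genotype and of end-stage illness cannot be told apart in this design.

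IGF1 is made mainly by hepatocytes under the control of growth hormone and circulates to promote growth. Most of it travels in a ternary complex with IGF-binding protein 3 or 5 and the acid-labile subunit, the product of Igfals, which keeps it in the bloodstream. The smaller binding proteins 1, 2 and 4 bind IGF1 outside that complex and limit its access to the receptor IGF1R, and liver Igfbp1 is known to rise in fasting and stress and to be lowered by insulin.

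The genes lie at 7 separate places in the genome (GRCm39, GENCODE M39 coordinates), with Igfbp1 and Igfbp3 as neighbours on chromosome 11, 3539 bp apart and on opposite strands. Promoter windows of RefSeq (from 250 bases before to 50 after an annotated start, built on GRCm38.p6) were found for 8 of the 8 genes, 11 windows in all, and each sequence occurred at 1 place on its GRCm39 chromosome. They were searched on both strands for GTAAACA and AAAACAA (letters that FOXO factors, which insulin and IGF1 signalling inhibits, can bind), for TTCNNNGAA (the STAT form, relevant to growth hormone through STAT5) and for ACGTG (the core of hypoxia response elements). Of all 32851 windows, 3.65% hold GTAAACA, 9.02% AAAACAA, 8.3% TTCNNNGAA and 19.6% ACGTG. The stretches of Igfals and Igfbp1, the genes with the largest differences below, are shown because both hold such letters, in capitals.
Igfals, chr17:25096955-25097178, plus strand: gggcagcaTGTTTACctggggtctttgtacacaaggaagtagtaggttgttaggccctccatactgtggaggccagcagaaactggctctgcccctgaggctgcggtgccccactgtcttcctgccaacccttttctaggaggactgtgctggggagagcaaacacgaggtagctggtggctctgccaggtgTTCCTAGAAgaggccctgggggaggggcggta
Igfbp1, chr11:7147669-7147698, plus strand: agctcacaagcAAAACAAacttattttgaa

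In the Igfals stretch the capitals mark GTAAACA, read on the opposite strand 242 bases before the RefSeq start, and a TTCNNNGAA match 58 bases before it. The stretch lies inside the GENCODE span of the Igfals gene, just upstream of the exon that GENCODE gives for this start. The Igfals gene also overlaps the antisense RNA gene Gm41549. A second of the 3 Igfals windows holds TTCNNNGAA, 236 bases before its start. In Igfbp1 the AAAACAA lies 107 bases before the RefSeq start and inside the GENCODE span of the gene. Igfbp2 and Igfbp7 hold ACGTG, while the windows of Igf1, Igf1r, Igfbp3 and Igfbp4 hold none of the 4 motifs. These matches describe the letters in the windows, and binding was not measured.

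The libraries held from 30044812 to 43634073 counts on genes. Levels are given as CPM, in which counts are set to a common library size after TMM scaling. Xpa was 3.1 to 6.34 CPM in Het and 0.992 to 1.83 CPM in KO livers, a log2 fold change of -1.83 (edgeR adjusted p = 6.26e-05). Xpa was thus lower in the livers named KO, the group that the labels write as Xpa+/+. Reads counted on Ercc8 were higher in KO livers by a log2 fold change of 1.62 (edgeR adjusted p = 0.000173), and whether they came from the mouse gene or the vector was not tested. Summed hepatocyte markers were 74309 to 99769 CPM in Het and 94794 to 154281 CPM in KO livers, whereas markers of pancreas and fat summed to at most 0.167 CPM, with Cpa1, Cel, Pnlip and Prss2 at 0. Differences were tested by quasi-likelihood in edgeR, with Benjamini-Hochberg adjustment over the 19350 genes, and a gene was called at an adjusted p under 0.05. Each library is a separate mouse, so the tests measure differences against the spread between mice.

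Of the 8 genes, only Igfals was called between the genotypes, lower in KO livers, and the other 7 were not called. Across all tested genes 21.6% were called in this comparison, 11.8% higher and 9.8% lower, so 1 of 8 is no more than the background. At an unadjusted p under 0.05 there were 4 of the 8 (Igfals, Igfbp1, Igfbp4 and Igfbp7). The median log2 fold change of the 8 genes was 0.10 and that of all genes 0.02. In females alone the call was again Igfals (1 of 8, against 9.65% of all genes), and in males alone none of the 8 was called (against 6.9% of all genes), although Igfals had an unadjusted p under 0.05. DESeq2 and limma on TPM each called none in males too.

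**Figure D1:**
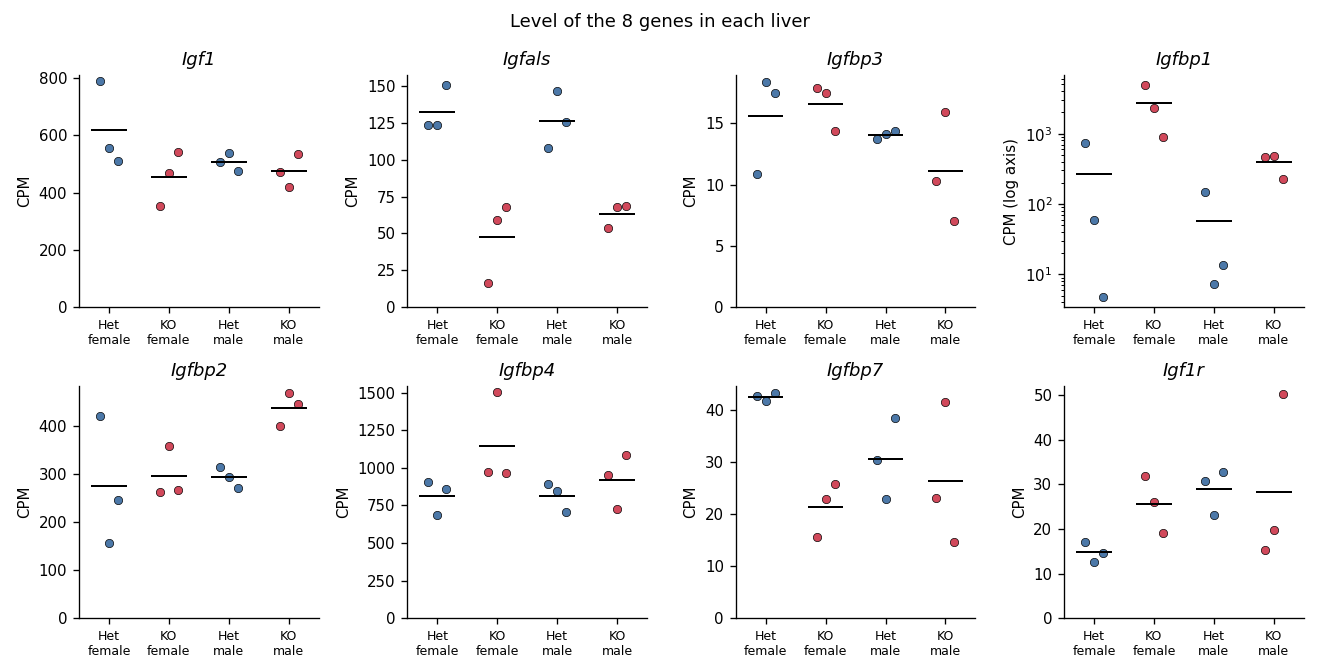
Level of each gene in CPM (y axis, logarithmic for Igfbp1 and linear from 0 for the others) in the 4 groups, with 1 point per liver and a line at the mean of 3. Igfals is the gene whose 6 KO livers (at most 68.3 CPM) all lie below the 6 Het livers (at least 107.6 CPM), while Igfbp1 spans 4.8 to 725.8 CPM among Het livers alone.

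Igf1 (ENSMUSG00000020053.19, chromosome 10, 87693642 to 87772904, plus strand) was abundant in every liver. Het females had 789.0, 557.1 and 509.2 CPM and Het males 508.2, 539.3 and 475.5 CPM. KO females had 354.3, 469.7 and 541.6 CPM and KO males 473.4, 420.3 and 533.2 CPM. The genotypes overlapped, with Het_F_111 standing above all other livers and KO_F_108 below them. Females averaged 618 ± 150 CPM (Het) and 455 ± 94.4 CPM (KO), and males 508 ± 31.9 CPM (Het) and 476 ± 56.5 CPM (KO), each as mean ± SD with n = 3. The log2 fold change between the genotypes, KO relative to Het, was -0.27 (standard error 0.141, 95% interval -0.58 to 0.04, edgeR adjusted p = 0.197). In females it was -0.44 (interval -0.88 to -0.01, edgeR adjusted p = 0.171) and in males -0.09 (interval -0.53 to 0.34, edgeR adjusted p = 0.824).

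The result for Igf1 depended on whether transcript length entered the measure. Igf1 has 18 annotated coding transcripts, of 510 to 7590 nt, and its effective length (the mean length of the transcripts that Salmon found in use, relative to the mean over livers) ran from 0.802 in Het_F_126 to 1.23 in Het_F_111, and from 0.902 to 1.14 in KO livers. None of the other 7 genes ranged as widely. Counts rise with length, and TPM, the abundance of transcripts per length and library, divides it out. In TPM the Het females had 188.8, 165.7 and 183.3 and the KO females 119.5, 109.2 and 143.5, without overlap, while the males overlapped. With the length-scaled counts the log2 fold change was -0.38 (edgeR adjusted p = 0.0263), and with limma on log2(TPM + 1) it was -0.36 (adjusted p = 0.0334). Over both sexes Igf1 was thus called lower in KO livers on scales that take the length into account and not on the counts as deposited. In females alone these scales differed. Limma on log2(TPM + 1) called it with the filter on low values (-0.53, adjusted p = 0.0398) but not without (adjusted p = 0.0538). By edgeR it was not called in females with the length-scaled counts (-0.46, adjusted p = 0.0708) or the scaled counts (-0.46, adjusted p = 0.0678).

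**Figure D2:**
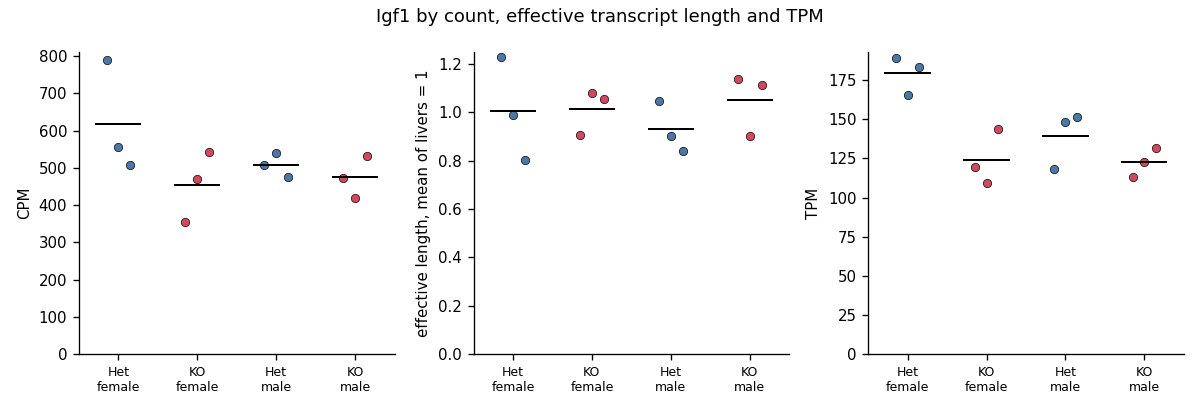
Igf1 in each liver as CPM, as effective transcript length relative to the mean over livers, and as TPM (y axes, from 0), by group, with a line at the mean of 3. The Het liver with the highest CPM (789.0) also has the longest effective length (1.23), and the Het females lie closer together in TPM than in CPM.

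Igfals (ENSMUSG00000046070.10, chromosome 17, 25084971 to 25100984, plus strand), which encodes the acid-labile subunit, had 123.3, 123.3 and 150.6 CPM in Het females and 107.6, 146.4 and 125.1 CPM in Het males. KO females had 16.3, 59.2 and 67.9 CPM and KO males 54.0, 68.2 and 68.3 CPM. Every KO liver was below every Het liver, a separation found in 9.35% of all tested genes (in either direction). KO_F_108 had the lowest level. The share of genes separated within a single sex, where fewer livers are compared, was not counted. Separations within a sex, for this and the other genes, are therefore given as descriptions. Igfals fell by 1.23 on the log2 scale in KO livers (standard error 0.277, 95% interval -1.84 to -0.62, edgeR adjusted p = 0.0111), to 0.426 times the Het level. The fall was called in all 24 alternative analyses, with log2 fold changes from -1.41 to -1.04.

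Within females Igfals fell by 1.47 on the log2 scale (interval -2.34 to -0.60, edgeR adjusted p = 0.0413), and in males the value was -0.99 (interval -1.85 to -0.13, edgeR adjusted p = 0.156). The difference between the sexes was not called (interaction 0.48, interval -0.73 to 1.68, edgeR adjusted p = 0.812). The call in females was lost in 12 of the 24 alternatives, among them leaving out any 1 mouse other than KO_F_108 or KO_F_123 (adjusted p up to 0.0939). Without KO_F_108 the value in males was -1.0 and was called (edgeR adjusted p = 0.00313).

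Relative to Igf1 in the same liver, Igfals stood at 0.261 to 0.317 in the 6 Het livers on the TPM scale, and at 0.0548 to 0.205 in the 6 KO livers. The 5 KO livers other than KO_F_108 lay between 0.172 and 0.205. These ratios compare 2 genes within a library and do not depend on library size. They are given as a description.

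Igfbp3 (ENSMUSG00000020427.12, chromosome 11, 7156086 to 7164179, minus strand) encodes the binding protein that forms the ternary complex and is made in liver mostly by cells other than hepatocytes. It was low, with 10.9, 18.4 and 17.5 CPM in Het females and 13.7, 14.1 and 14.4 CPM in Het males. KO females had 17.9, 17.5 and 14.4 CPM and KO males 10.3, 15.9 and 7.08 CPM. The genotypes overlapped in both sexes, and the log2 fold change was -0.13 (95% interval -0.53 to 0.27, edgeR adjusted p = 0.663). The intervals were -0.48 to 0.65 in females and -0.91 to 0.23 in males.

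Igfbp1 (ENSMUSG00000020429.8, chromosome 11, 7147651 to 7152546, plus strand) encodes the hepatocyte binding protein of fasting and stress and varied more between livers than any other of the 8 genes. Het females had 725.8, 59.1 and 4.8 CPM and Het males 150.6, 7.19 and 13.7 CPM. KO females had 4858.5, 2303.3 and 896.0 CPM and KO males 468.3, 476.8 and 228.1 CPM. The median was 36.4 CPM in Het and 686 CPM in KO livers. Within each sex the genotypes did not overlap, and across the sexes only Het_F_111 lay above the lowest KO liver.

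The log2 fold change of Igfbp1 was 3.06 (standard error 1.14, 95% interval 0.51 to 5.62), or 8.35-fold. The Het livers spread over 151-fold from lowest to highest, and the difference was not called (edgeR adjusted p = 0.0849). In females the value was 3.35 (interval -0.31 to 7.01, edgeR adjusted p = 0.214) and in males 2.77 (interval -0.80 to 6.35, edgeR adjusted p = 0.335). The difference passed the threshold by DESeq2 (adjusted p = 0.00693) and by limma on log2(TPM + 1), where it was 4.39 (adjusted p = 0.0301). It also passed in edgeR without Het_F_111 (log2 fold change 4.57, adjusted p = 0.0255) or without Het_M_119 (4.28, adjusted p = 0.0413), the Het livers with the highest Igfbp1.

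Igfbp2 (ENSMUSG00000039323.19, chromosome 1, 72863606 to 72891634, plus strand), another circulating binding protein of hepatocytes, had 421.8, 156.1 and 247.2 CPM in Het females and 315.4, 294.3 and 271.5 CPM in Het males. KO females had 263.2, 359.7 and 267.5 CPM and KO males 400.2, 469.4 and 447.3 CPM. The KO males lay above the Het males without overlap, while the females overlapped. The log2 fold change was 0.34 over both sexes (95% interval -0.09 to 0.78, edgeR adjusted p = 0.237), 0.58 in males (interval -0.03 to 1.19, edgeR adjusted p = 0.239) and 0.11 in females (interval -0.50 to 0.72, edgeR adjusted p = 0.836). Without Het_F_111, the Het liver with the highest Igfbp2, it was 0.56 over both sexes and was called (edgeR adjusted p = 0.0247).

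Igfbp4 (ENSMUSG00000017493.13, chromosome 11, 98932064 to 98945218, plus strand), whose product holds IGF1 until the protease pappalysin cuts it, had 903.3, 686.2 and 857.4 CPM in Het females and 892.8, 847.8 and 707.1 CPM in Het males. KO females had 973.3, 1506.0 and 964.4 CPM and KO males 954.9, 725.4 and 1082.6 CPM. The KO females were above the Het females, with KO_F_112 the highest liver, and the males overlapped. The log2 fold change was 0.33 (standard error 0.153, 95% interval 0.00 to 0.67, edgeR adjusted p = 0.14). In females it was 0.49 (edgeR adjusted p = 0.16) and in males 0.17 (edgeR adjusted p = 0.679).

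Igfbp7 (ENSMUSG00000036256.14, chromosome 5, 77493130 to 77555931, minus strand) encodes a secreted protein that binds IGF1 weakly and is expressed by vascular and stellate cells. It had 42.8, 41.8 and 43.3 CPM in Het females and 30.4, 22.9 and 38.5 CPM in Het males. KO females had 15.7, 22.9 and 25.8 CPM and KO males 23.2, 41.6 and 14.6 CPM. The Het females lay close together and above all KO females, and the males overlapped. The log2 fold change was -0.60 (95% interval -1.11 to -0.09, edgeR adjusted p = 0.0883), with -0.99 in females (interval -1.71 to -0.26, edgeR adjusted p = 0.0795) and -0.21 in males (interval -0.93 to 0.51, edgeR adjusted p = 0.753). It passed the threshold by DESeq2 (adjusted p = 0.046) and in edgeR without KO_M_122 (log2 fold change -0.84, adjusted p = 0.0101). In females it passed by DESeq2 (adjusted p = 0.0278), and in edgeR without KO_M_122 (adjusted p = 0.0306) or KO_M_136 (adjusted p = 0.0363).

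Some markers of stellate and endothelial cells, which express Igfbp7, were lower in KO livers, against 9.8% of all genes called lower and 11.8% called higher. Of 10 hepatic stellate cell markers 4 were lower in KO livers and none higher (median log2 fold change -0.81), and their summed level was 313.3 to 572.5 CPM in Het and 156.0 to 329.5 CPM in KO livers. Of 10 sinusoidal endothelial markers 6 were lower and none higher (median -0.66), with sums of 262.1 to 487.3 CPM and 198.4 to 341.1 CPM. KO_M_122, which had the highest Igfbp7 of the KO livers, also had their highest sums of both lists. No marker of either list was at 0. The part of these cells in the Igfbp7 values was not tested, and in bulk tissue fewer cells of a type and less RNA per cell cannot be told apart. Of 8 Kupffer cell markers 3 were higher and none lower (sums 132.6 to 351.2 CPM in Het and 181.9 to 552.0 CPM in KO livers). None of 7 cholangiocyte markers was called, and of 12 blood cell markers 1 was higher and 1 lower. Of 9 hepatocyte markers tested, 2 were higher (Ahsg and Fgb), 1 was lower (Ttr) and 6 were not called.

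Igf1r (ENSMUSG00000005533.11, chromosome 7, 67601518 to 67883416, plus strand), the receptor, was low in liver, where hepatocytes carry little of it. Het females had 17.1, 12.6 and 14.7 CPM and Het males 30.7, 23.1 and 32.9 CPM. KO females had 31.8, 26.0 and 19.1 CPM and KO males 15.2, 19.7 and 50.3 CPM. The KO females were above the Het females, though the difference in females was not called with all livers. The KO males fell on both sides of the Het males, with KO_M_136 the highest liver of all. The log2 fold change was 0.38 (95% interval -0.21 to 0.98, edgeR adjusted p = 0.339), with 0.79 in females (interval -0.05 to 1.63, edgeR adjusted p = 0.205) and -0.02 in males (interval -0.86 to 0.81, edgeR adjusted p = 0.979). In females it was called without KO_M_136 (0.78, edgeR adjusted p = 0.0463), a male whose values enter the shared estimate of the spread.

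**Figure D3:**
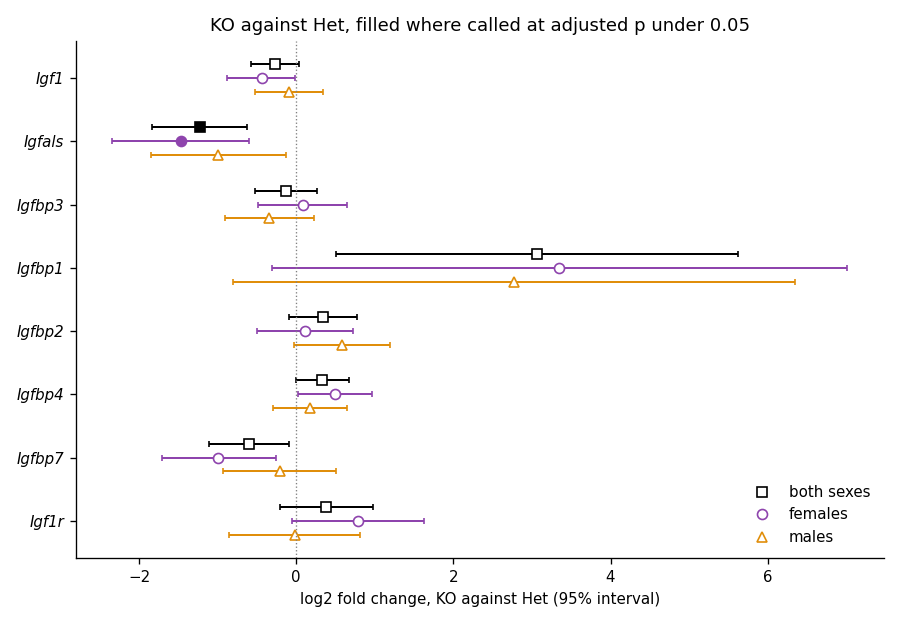
Log2 fold change of KO against Het (x axis) with its 95% interval for the 8 genes (y axis), over both sexes, in females and in males. Filled symbols mark a call at an adjusted p under 0.05, which only Igfals has, over both sexes (-1.23) and in females (-1.47), and the widest intervals are those of Igfbp1.

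The KO effect was not shown to differ between females and males for any of the 8 genes. The interaction had log2 values from -0.81 (Igf1r) to 0.78 (Igfbp7) and adjusted p from 0.639 to 0.953 by edgeR, none of the 8 had an unadjusted p under 0.05, and DESeq2 and limma on TPM called none. Across all genes 0.0465% were called for the interaction. Between males and females of both genotypes none of the 8 was called either (0.925% of all genes were), again with none at an unadjusted p under 0.05 and none by DESeq2 or limma on TPM. The values ran from -2.49 for Igfbp1 (interval -4.99 to 0.01, edgeR adjusted p = 0.372) to 0.55 for Igf1r (interval -0.04 to 1.15, edgeR adjusted p = 0.404).

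On the TPM scale, which allows levels of different genes to be compared, the order by median in Het livers was Igfbp4 (340 TPM), Igfbp2 (173), Igf1 (159), Igfals (48.1), Igfbp7 (30.9), Igfbp1 (20.2), Igfbp3 (4.31) and Igf1r (1.34). In KO livers it was Igfbp4 (443 TPM), Igfbp1 (362), Igfbp2 (235), Igf1 (121), Igfals (22.5), Igfbp7 (16.4), Igfbp3 (4.85) and Igf1r (1.48). Ranges of neighbours overlapped among Igfbp4, Igfbp2 and Igf1 and among Igfbp7, Igfbp1 and Igfbp3 in Het livers, and among Igfbp4, Igfbp1 and Igfbp2, between Igfals and Igfbp7 and between Igfbp3 and Igf1r in KO livers. The 7SL RNA genes Rn7s1 and Rn7s2 took 44.5 to 55.7% of all TPM, and this share enters every TPM value set between livers, those of Igf1 and of the limma fits included. The ratios within a liver given next do not depend on it.

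Summed over Igfbp1 to Igfbp4, binding protein transcripts outnumbered those of Igf1 in every liver. The ratio was 5.92, 2.7 and 3.02 in Het females and 5.06, 3.46 and 3.26 in Het males. It was 29.5, 17.5 and 7.61 among the KO females and 8.18, 6.77 and 6.64 among the KO males. All 6 KO livers were above all 6 Het livers in this ratio, which is given as a description. The sum itself overlapped, at 447.0 to 1118.3 TPM in Het and 829.9 to 3526.2 TPM in KO livers. Igfbp1 made up 0.479 to 36.6% of this sum in Het livers and 13.7 to 80.8% in KO livers, with the highest share in KO_F_108. Without Igfbp1, Igfbp4 per Igf1 ranged from 1.79 to 2.92 among Het livers and from 2.42 to 5.4 among KO livers. Igfbp2 per Igf1 ranged from 0.669 to 1.59 and from 1.23 to 2.35, and both ratios overlapped. Transcript ratios are not protein ratios, and no protein was measured in these livers.

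**Figure D4:**
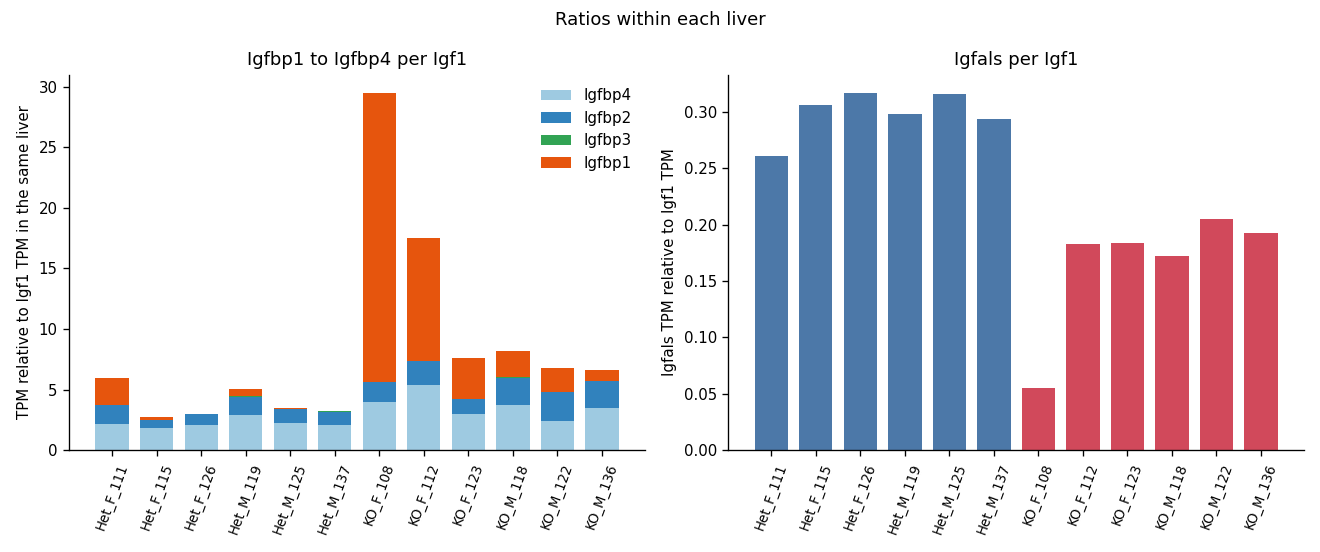
Ratios of TPM within each of the 12 livers (x axis). At left the bars stack Igfbp4, Igfbp2, Igfbp3 and Igfbp1, each divided by Igf1, and reach 2.7 to 5.92 in Het livers and 6.64 to 29.5 in KO livers. At right the bars give Igfals divided by Igf1, with 0.261 to 0.317 in Het livers and 0.0548 to 0.205 in KO livers.

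Of 15 other genes of the IGF system, 10 had enough reads to be tested. KO livers had 2 of them higher and 1 lower, and 7 were not called (median log2 fold change 0.33), against 11.8% of all genes called higher and 9.8% called lower. Igf2, the fetal growth factor that is largely silent in adult mouse liver, had 7 to 18 counts in Het and 19 to 84 counts in KO livers, without overlap. It rose by a log2 fold change of 1.61 (standard error 0.276, edgeR adjusted p = 0.00248) and remained at 0.554 to 2.6 CPM, far below Igf1. Igf2r, which clears IGF2 from the cell surface, was lower (-0.38, edgeR adjusted p = 0.0475).

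Igf2bp3, an RNA-binding protein gene of fetal tissue, had 0 to 2 counts in Het livers and 2 to 23 counts in KO livers. Set against a floor of 3 counts per Het library its KO mean was at least 2.56-fold higher (fitted log2 fold change 2.03, which depends on the prior count, edgeR adjusted p = 0.00878), and 2 KO livers were themselves at 2 and 3 counts. Pappa, the gene of the protease that cuts IGFBP4, was at 70.4 to 133.6 CPM in Het and 97.0 to 212.7 CPM in KO livers (log2 fold change 0.54, edgeR adjusted p = 0.0576). Insr, the insulin receptor gene, had a log2 fold change of -0.02 with an interval of -0.27 to 0.24 (edgeR adjusted p = 0.943). The others were not called: Igfbp5 (0.54), Igfbp6 (0.45) and Igf2bp2 (0.21) with values above 0, and the protease gene Htra1 (-0.69) and Stc2 (-0.35), an inhibitor of pappalysin, with values below 0.

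Transcripts were tested for 14 genes of growth hormone signalling, which drives Igf1 and Igfals in liver, while activity of the pathway was not measured. Of these genes 5 were higher, 2 lower and 7 not called (median log2 fold change 0.16), against 21.6% of all genes called in either direction and a median of 0.02. This list, like the other lists given here, the marker lists included, was chosen with earlier results of these data known. Its share of calls is therefore given as a description. Ghr, the growth hormone receptor, had a median of 489.4 CPM in Het and 153.1 CPM in KO livers, with 1 Het liver (Het_F_115) below the highest KO liver (323.5 CPM). It fell by 1.39 on the log2 scale (standard error 0.303, edgeR adjusted p = 0.00944). In females alone Ghr was not called (-1.15, edgeR adjusted p = 0.108), and in males it was (-1.64, edgeR adjusted p = 0.0456). Stat5b, the transcription factor that carries the signal, rose by 0.50 (edgeR adjusted p = 0.00441) and Ptpn1, a phosphatase that dampens it, by 0.36 (edgeR adjusted p = 0.00919).

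Cux2, a repressor that female liver expresses under the female pattern of growth hormone, ranged from 19.3 to 41.7 CPM among Het females, against 0.48 to 0.834 CPM among the males. KO females had 32.2 to 119.1 CPM and KO males 20.3 to 46.9 CPM. All 3 KO males were thus in or above the range of the Het females, and the log2 fold change in males was 5.65 (edgeR adjusted p = 0.000833), against 1.36 in females (edgeR adjusted p = 0.0905). The difference between these values was 4.3 (95% interval 2.7 to 5.89) and was not called (edgeR adjusted p = 0.0924). Ghr, Stat5b, Ptpn1 and Cux2 are described because they were the 4 genes of smallest p in this list, so they were picked by their values. The remaining calls of this list, Socs2 (2.0), Socs3 (1.64) and Bcl6 (-2.08), were also named after their values were seen. Socs2 and Socs3 encode inhibitors of cytokine signalling, and Bcl6 a repressor that opposes STAT5. The averages for Socs3 and Bcl6 cover unlike values in the sexes. Socs3 rose by 3.32 in females (edgeR adjusted p = 0.0157) and was at -0.04 in males (interval -1.35 to 1.26, edgeR adjusted p = 0.976). Bcl6 was at -0.87 in females (interval -2.38 to 0.65, edgeR adjusted p = 0.444) and fell by 3.3 in males (edgeR adjusted p = 0.028). The size of the fall in males rests in part on Het_M_137, with 71.5 CPM of Bcl6. The other Het males had 13.2 and 14.1 CPM, and the KO males 3.58, 3.09 and 3.22 CPM. The difference between the sexes was called for neither gene (edgeR adjusted p = 0.342 for Socs3 and 0.515 for Bcl6).

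Downstream of IGF1R and the insulin receptor, 32 genes were tested, of which 3 were higher, 2 lower and 27 not called (median log2 fold change -0.03). This is a smaller share than the 21.6% called among all genes, and the calls below describe single genes. Irs2, the main insulin receptor substrate of liver, was at 22.6 to 180.7 CPM in Het and 87.7 to 471.9 CPM in KO livers, with only Het_F_111 above the lowest KO liver. It rose by 1.59 on the log2 scale (edgeR adjusted p = 0.0431). Irs2 was called neither in females alone (2.08, edgeR adjusted p = 0.0866) nor in males alone (1.1, edgeR adjusted p = 0.373). Pik3r1, the regulatory subunit of PI3 kinase, fell by 0.77 (edgeR adjusted p = 0.00984). Trib3, an inhibitor of AKT that is induced by cell stress, rose by 1.26 (edgeR adjusted p = 0.0109), and Rictor, the defining subunit of mTORC2, by 0.51 (edgeR adjusted p = 0.00542). Rptor, of mTORC1, was the remaining call, at -0.26 (edgeR adjusted p = 0.0484), and is named after its value was seen.

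**Figure D5:**
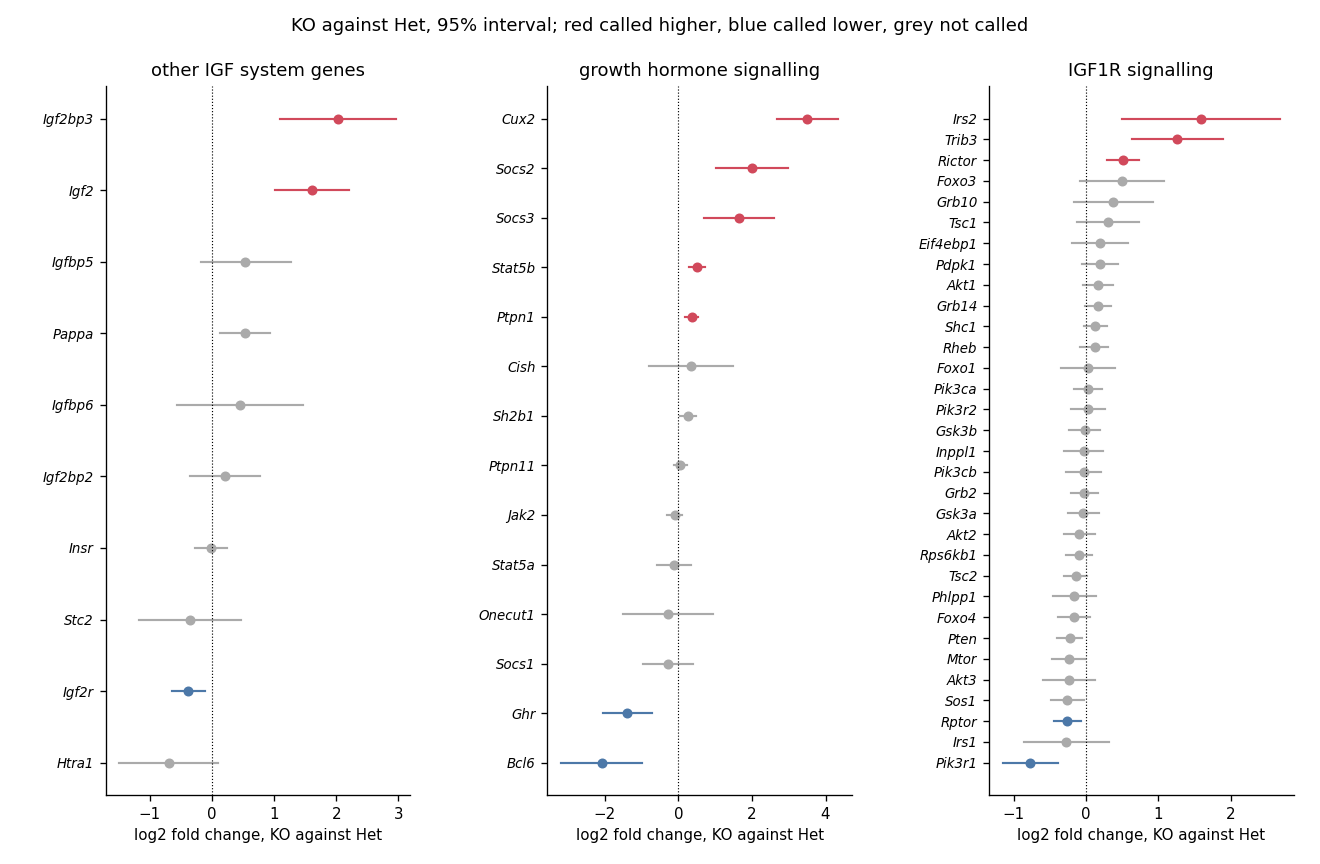
Log2 fold change of KO against Het (x axis) with its 95% interval for the tested genes (y axis) of 3 lists: 10 other IGF system genes, 14 genes of growth hormone signalling and 32 genes downstream of IGF1R. Red marks genes called higher, blue called lower and grey not called, and most genes of the receptor pathway lie near 0 (median -0.03), while Ghr is at -1.39 and Cux2 at 3.5. The fitted value of Igf2bp3 depends on the prior count.

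The genes most alike in pattern were those with the smallest root mean square difference of mean-centred log2 CPM over the 12 livers, among 13410 genes at a mean of at least 1 CPM. For Igfals, whose own root mean square around its mean was 0.862, they were Lrit1 (0.218), Pbld2 (0.224) and Cyp2j5 (0.228). For Igfbp1 (own value 3.09) they were Gm48199 (1.14), Dusp8 (1.33) and Ddit4 (1.38), all farther from Igfbp1 than the former are from Igfals. For Igf1 (own value 0.261) they were Sh3bgrl (0.13), Hmgb1 (0.133) and Epm2a (0.137), and for Igfbp2 (own value 0.433) Rasal2 (0.239), 9430038I01Rik (0.243) and Albfm1 (0.256). All genes share the 12 libraries and their scaling.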

How the data were processed

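Total RNA from 12 livers was depleted of ribosomal RNA, made into libraries with a stranded kit and sequenced as paired reads. Per the labels and the methods, the authors ran nf-core/rnaseq, used STAR 2.7.9a for alignment (GRCm39, GENCODE M34) and Salmon 1.10.1 to quantify genes. The deposited tables hold estimated counts, 2 further sets of estimated counts rebuilt from TPM (scaled to library size, or also by transcript length), and TPM. As 12.0% of the estimated counts have a fractional part, they were rounded for the count tests. The total per liver, 30044812 to 43634073 counts, limits the precision of genes such as Igf2bp3 and Igf2, while the 8 genes described had at least 221 counts in every liver. The setting for strand in counting is not given in the sources used here. Igf1, Igfals, Igf1r, Igfbp3 and Igfbp7 overlap genes annotated on the opposite strand, and their reads were not told apart here.

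Groups were taken from the sample titles. A gene was kept when 3 or more livers had 5 or more reads at the median library size (19350 of 57180). Counts were scaled by TMM and fitted with edgeR 4.0.16 in R 4.3.3 (quasi-likelihood F test, robust estimation, prior count of 2) with 1 mean for each combination of sex and genotype, so that the spread is estimated from all livers. Contrasts were KO against Het averaged over the sexes, in females, in males, the interaction (males minus females) and males against females. P-values were adjusted by Benjamini-Hochberg over all tested genes and called under 0.05. Standard errors and 95% intervals were computed from the F statistic. The fit was tested on simulated data. Effective length was computed as the ratio of the estimated counts to the length-scaled counts. Each ratio was divided by the median ratio of its liver, taken over genes well counted in every liver. It was then set to a mean of 1 over livers for each gene.

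Alternatives were counts without rounding, both rebuilt count tables, no filter, a filter of 10 counts in every liver, RLE scaling, library size only, the newer quasi-likelihood method, DESeq2 1.42.0, limma 3.58.1 on log2(TPM + 1) and log2(TPM + 0.1), limma without a filter, and leaving out each mouse. The 8 genes and the lists were chosen with earlier results of these data known. Values were given for all 8 genes, for every tested gene of the list of other IGF genes, for the 4 genes of smallest p in each of the other lists, for Xpa and Ercc8, for the 3 genes most like Igf1, Igfals, Igfbp1 and Igfbp2, and for marker lists as sums. Only columns of these 12 mice were read. Promoter sequences are from RefSeq (GRCm38.p6) and were placed on GRCm39 by exact match.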

Additional observations from a re-analysis of the deposited data

Results flagged for a closer look

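Of 16 sets of 6 livers (8 genes in 2 genotypes), 2 held a liver far from the others by Dixon's test at 95%, which by chance flags about 1 in 20 sets. For Igf1 in Het livers, Het_F_111 (789.0 CPM) stood above the rest, with a gap of 0.687 of the whole range on the log2 scale. For Igfals in KO livers, KO_F_108 (16.3 CPM) stood below the rest, with a gap of 0.836 of the range. KO_F_108 was also the KO liver with the lowest Igf1 (354.3 CPM) and the highest Igfbp1 (4858.5 CPM), and Het_F_111 the Het liver with the highest Igfbp1 (725.8 CPM) and Igfbp2 (421.8 CPM).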

How the results depend on the processing

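Of 960 values of the 8 genes under alternatives (24 for each gene in each of 5 contrasts), 913 kept their direction and side of the threshold, 12 lost a call, 21 gained one and 14 changed sign, none of the last being called. The 12 lost calls are those of Igfals in females. Igf1r in males turned to 0.021 with library size only. Leaving out single mice gave reversals for Igf1r in males (-0.73 to 0.27 over all alternatives), Igfbp2 in females (-0.18 to 0.55), Igfbp3 in females (-0.13 to 0.21), Igfbp7 in males (-0.69 to 0.076), the interaction of Igfbp1 (-3.61 to 1.88), and males against females for Igfals (-0.0465 to 0.33) and Igfbp7 (-0.33 to 0.044).
The number of the 8 genes called between genotypes was 1, and became 2 with length-scaled or scaled counts, 3 with DESeq2 and each limma fit, and 1 to 3 without single mice. In females it was 1, and became 0 with scaled counts or no filter, 2 with DESeq2 and with limma at either pseudocount under the filter, and 0 to 2 without single mice. In males it was 0, and 0 to 1 without single mice.
Over all genes, 4175 were called between genotypes, 2591 with limma and no filter, and 2961 to 4141 without single mice. In females 1867 were called, 3141 by DESeq2, and 699 to 2549 without single mice. In males 1336 were called, 2245 by DESeq2, 686 by limma without a filter, and 487 to 1759 without single mice. The interaction gave 9, with 21 without a filter, 14 with the stricter filter, 17 with RLE, 159 by DESeq2, 45 and 37 by limma with pseudocounts of 1 and 0.1, 33 by limma without a filter, and 4 to 82 without single mice. Males against females gave 179, with 102 with the stricter filter, 722 by DESeq2, and 101 to 308 without single mice. With library size only, the share of calls in females that were higher was 37.7%, and with limma on log2(TPM + 1) 35.3%, against 53.3% in the fit reported. Library size only also moved the median of all genes in the interaction to 0.155. The causes were not tested.
No paired analysis was possible because each mouse number occurs in only 1 group and the litter of each mouse is not given in the sources used here. With 3 mice a group and 151-fold spread of Igfbp1 among Het livers, a call for such a gene depends on single livers.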
